A study of Ovis aries with 23 samples.

Results

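Transcript levels in the border zone of an infarct were compared with those in remote muscle of adolescent sheep hearts, on 3 arrays a side, which are 6 of the 23 arrays of the series. The arrays were chosen by their titles alone, as adolescent border 1, 2 and 3 and adolescent remote 1, 2 and 3. All of these sheep were 6 months old, and in all of them a branch of the left anterior descending coronary artery, its second diagonal, had been tied off 3 days before the tissue was taken. Border tissue came from the zone around the infarct and remote tissue from muscle away from it. Beside them stand the adolescent infarct (3 arrays) and sham-operated hearts (2 arrays, replicates 2 and 3, at a time after surgery that is not given in the sources used here). The same 4 tissues of fetuses at 105 days of gestation (3 arrays each) are used as well. Infarct tissue of adolescents, and infarct, border and remote tissue of fetuses, was likewise taken 3 days after ligation. The comparison asks how muscle next to an infarct differs from muscle of infarcted hearts that lies apart from it. The labels do not say whether border and remote tissue of the same number came from 1 animal, nor that the replicates are separate animals. The p-values below thus speak of a spread among arrays alone, part of which may be technical. For probes and genes this spread was estimated within the 8 groups over all 23 arrays, unless a fit of fewer arrays is named.

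The border zone of an infarct is living tissue that meets the dead core. In the first days after a coronary artery is closed, monocytes and neutrophils enter it, fibroblasts begin to divide and to lay down collagen, and the surviving heart muscle cells, whose energy normally comes mostly from fatty acids oxidised in mitochondria, lie within reach of cytokines and of disturbed perfusion. Remote muscle keeps its blood supply, and it takes over load from the tissue that was lost. RNA of a piece of tissue mixes all of its cells, so that fewer cells of a type and less RNA per cell cannot be told apart in any value below.

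Samples were labelled with Cy3, 1 sample per array, and hybridised to 15008 sheep probes of 60 bases each. The 75th percentile of the processed signal was 671.9, 521.7 and 230.3 on border 1, 2 and 3 and 356.4, 374.5 and 306.8 on remote 1, 2 and 3. Border 3 was the dimmest of the 6 arrays, with 64.4% of its probes well above background, against 78.6% and 79.0% on border 1 and 2 and 66.1% to 73.5% in remote muscle. Array levels below are log2 signals minus the 75th percentile of their own array, so that 0 is the brightness of that percentile, and levels of different genes are not compared, since each probe has its own response. A difference of 1 is a 2-fold difference. Where a log2 difference stands before an adjusted p, the value after ± is its SE from the fit, and p-values are adjusted over all probes by the method of Benjamini and Hochberg. Heart muscle transcripts were bright in both zones: TPM1 (tropomyosin) lay at 7.78, 7.94 and 8.60 in border and 9.07, 9.21 and 9.11 in remote muscle, and MB (myoglobin, the oxygen store of muscle) at 7.05, 7.002 and 8.33 in border and 8.54, 8.81 and 8.75 in remote muscle.

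Differences between the zones were widespread and went both ways. Of 12451 probes tested, 1603 (12.9%) were higher and 1620 (13.0%) lower in border than in remote muscle at an adjusted p under 0.05 in limma, a linear model for arrays, 25.9% in all, and 4726 (38.0%) had an unadjusted p under 0.05. The higher probes moved further: 324 of them rose more than 4-fold and 14 of the lower ones fell as far, and the median difference was 1.29 among the higher and -0.91 among the lower, beside -0.04 over all probes. On 2319 probes (18.6%) all border arrays lay above all remote arrays, and on 2655 (21.3%) below them. Among the 883 genes with a name, each read by its brightest tested probe, 237 (26.8%) passed. Of these 154 (17.4%) rose and 83 (9.40%) fell, and the median difference over all 883 was 0.07. The other 2860 of the 3223 probes past the threshold carry no gene name here. Arrays with the same number share a slide, and border minus remote had the sign of the group difference on each of the 3 slides in 150 of the 154 genes that rose and 80 of the 83 that fell. These genes were called on the same arrays, so the like sign is largely set by the call and is no separate check. On 2937 of the 3223 probes past the threshold the groups did not overlap, which alone fixes the sign on every slide. With the slide as a block 3574 probes passed, 3178 of them among the 3223. The number depended on the arrays and on the processing: it was 1860 without border 1, 1592 without border 2, 1880 without remote 2 and 1656 in a fit of the 6 arrays alone, and normexp background correction left 4 probes, all 4 higher. Normexp values spanned unequal ranges, from 0.32 log2 units between the 10th and the 75th percentile on border 2 and 1.23 on remote 1 to 3.59 on border 1, where the values used here span 5.586 to 6.198 on all 6 arrays. No named gene kept its call under normexp, and this is not repeated at each gene.

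Border 3 lay nearer remote muscle than border 1 and 2 did. Over the 12451 probes the root mean square difference between border 1 and border 2 was 0.55, whereas border 3 stood 0.81 and 0.85 from them and 0.76, 0.87 and 0.73 from remote 1, 2 and 3. Remote arrays stood 0.63 to 0.71 from each other, and border 1 and 2 stood 0.94 to 1.20 from remote arrays. On the 4138 probes past the threshold without border 3, its median difference from the remote mean was 0.66 over the 2045 higher probes and -0.45 over the 2093 lower ones, which is 45.7% and 44.1% of the median of the other border arrays. It still had the direction of the others on 90.4% and 89.3% of those probes. Border 1 and border 2, each placed in the same way on probes chosen without it, reached 117.3% and 125.2% of the others on higher probes and 108.2% and 124.7% on lower ones. Among the 154 named genes that rose, border 3 was the border array nearest remote muscle in 129 and did not exceed the highest remote array in 22. Among the 83 that fell it was nearest in 69 and did not pass below the lowest remote array in 4. Border 3 was also the dimmest array, and the part of brightness in its position was not tested; with brightness as a term 3000 probes passed in place of 3223.

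**Figure D1:**
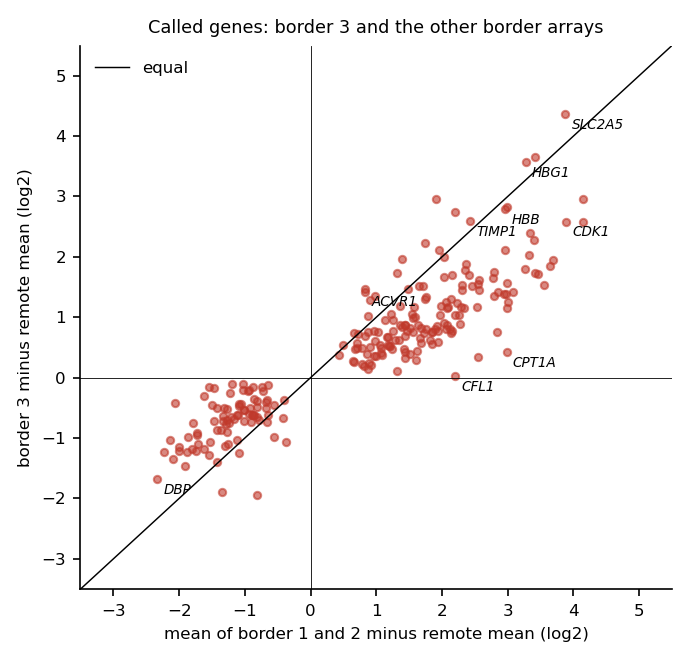
Each point is 1 of the 237 named genes past the threshold; the horizontal axis is the mean of border 1 and 2 minus the remote mean and the vertical axis border 3 minus the remote mean, both in log2 units, with a line where they are equal. Most points lie between the line and 0 on the vertical axis, so border 3 has the direction of the other border arrays at a smaller size, while HBG1, SLC2A5 and TIMP1 lie above the line.

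To place each array between unharmed and infarcted muscle, probes were chosen by the contrast of adolescent infarct with sham arrays. The distance between infarct and sham arrays on these probes is therefore in part fixed by the choice. Border and remote levels are not part of that contrast, but these arrays entered the choice through the spread and the probe filter of the shared fit. Without border 1, 2 or 3 the higher probes numbered 3157, 3166 and 3236. Over the 3195 probes higher in infarct than in sham (25.7% of those tested), the median level above the sham mean was 1.09, 1.07 and 0.52 on border 1, 2 and 3, against 0.26, 0.13 and 0.12 on remote 1, 2 and 3 and 1.61, 1.53 and 1.60 on the infarct arrays. All border arrays lay above all remote arrays and below all infarct arrays, and the border mean exceeded the remote mean by 0.72 (exact permutation test over samples, two-sided p = 0.1, the smallest that 3 against 3 arrays can give). Over the 3983 probes lower in infarct (32.0%) the medians were -0.92, -0.89 and -0.45 in border, -0.13, -0.07 and -0.22 in remote muscle and -1.45, -1.40 and -1.75 in infarct, and the border mean was below the remote mean by a difference of -0.61 (exact permutation test, p = 0.1). With normexp correction this second difference turned to 0.07 (exact permutation test, p = 0.9). Chosen instead by the contrast of fetal infarct with fetal sham arrays in the same fit, 1159 higher probes (9.31%) gave 1.54, 1.60 and 0.78 in border and 0.32, 0.06 and 0.11 in remote muscle. The 958 lower ones (7.69%) gave -0.93, -0.97 and -0.40 and 0.05, 0.11 and -0.05. Adolescent infarct arrays, which are not part of this contrast, lay at 2.18, 2.03 and 2.01 on the higher probes. On the lower probes they lay at -1.80, -1.65 and -1.72. The arrays of this contrast share no sample with those placed. By either choice, then, border 3 lay between the other border arrays and remote muscle, and remote 1 was the remote array highest on probes that infarction raises. The 75th percentile of the signal was 757.2, 875.9 and 1344.6 on adolescent infarct arrays and 246.4 and 128.9 on adolescent sham 2 and 3. On fetal arrays it was 487.0, 769.7 and 865.0 in infarct and 772.7, 567.1 and 752.4 in sham. The part of brightness in these placements was not tested.

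**Figure D2:**
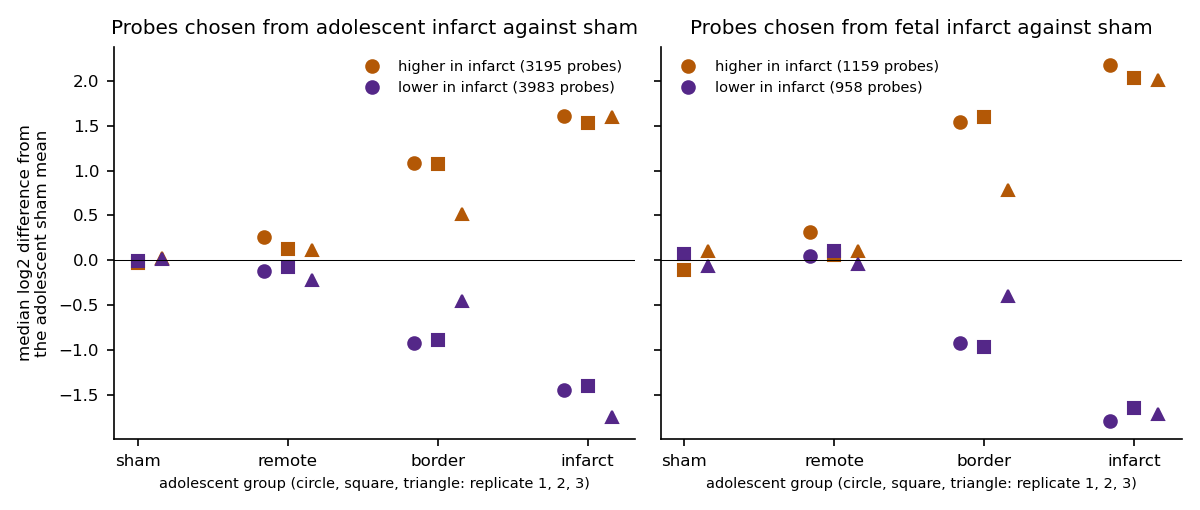
The vertical axis is an array's median difference from the adolescent sham mean, in log2 units, over probes higher (orange) or lower (violet) in infarct than in sham. Circles, squares and triangles are replicates 1, 2 and 3, and the panels differ in the infarct and sham arrays whose contrast chose the probes. Border arrays lie between remote and infarct arrays in both panels, and border 3 lies about midway between the other border arrays and remote muscle.

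The genes furthest apart between the zones are shown with the first 30 of the 60 bases of their probes, so that the transcript stretch behind each value can be read. They are given 5′ to 3′ as the array files print them:
SLC2A5: tctgggaagcagatccccatggagaattta
PLAUR: tgtctggaagcgacaggcactaaaggactg
CDK1: agagctttgggcactcctaataatgaagtg
HBG1: aaagtccaggtttgcagaaaggacacaact
HBB: atcttgacgacctcaagggcacctttgctc
DBP: tccgaagaggaactcaagccccagccaatc
CPT1B: aagtttctaaggctgatggctaagggctgg
SLC2A5 encodes a fructose transporter of the glucose carrier family. It had array levels of -1.54, 1.70 and 0.57 on border 1, 2 and 3 and -2.83, -4.22 and -4.33 on remote 1, 2 and 3, and rose most of all named genes, 16.4-fold (log2 difference 4.04 ± 0.98 (SE), adjusted p = 0.00649). The groups did not overlap, although remote muscle was above background on 2 of its 3 arrays only. PLAUR is the receptor that holds urokinase at the surface of moving cells. Its levels were 1.60, 1.61 and 0.42 in border and -1.16, -2.71 and -3.76 in remote muscle, a rise of 13.5-fold (log2 difference 3.75 ± 0.76 (SE), adjusted p = 0.00231). Next in size came ASPM, a spindle protein of dividing cells (12.3-fold), IL6, the cytokine that drives the acute phase response (11.3-fold), and CDK1, the kinase that starts mitosis (10.9-fold). At the other end DBP, a transcription factor that the circadian clock drives, had levels of -2.197, -3.000 and -1.95 in border and -0.46, -0.13 and -0.22 in remote muscle and fell 4.33-fold (log2 difference -2.11 ± 0.28 (SE), adjusted p = 0.000138). FBXO32, a muscle ubiquitin ligase also known as atrogin-1, followed with 1.11, 0.07 and 1.57 in border and 3.08, 2.83 and 2.53 in remote muscle, a fall of 3.72-fold (log2 difference -1.90 ± 0.40 (SE), adjusted p = 0.00289). In each of these 7 genes all border arrays lay on 1 side of all remote arrays, as was so for 199 higher (22.5%) and 145 lower (16.4%) of the 883 genes. IL6 no longer passed without border 1 or remote 3 (adjusted p = 0.061 to 0.0645).

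**Figure D3:**
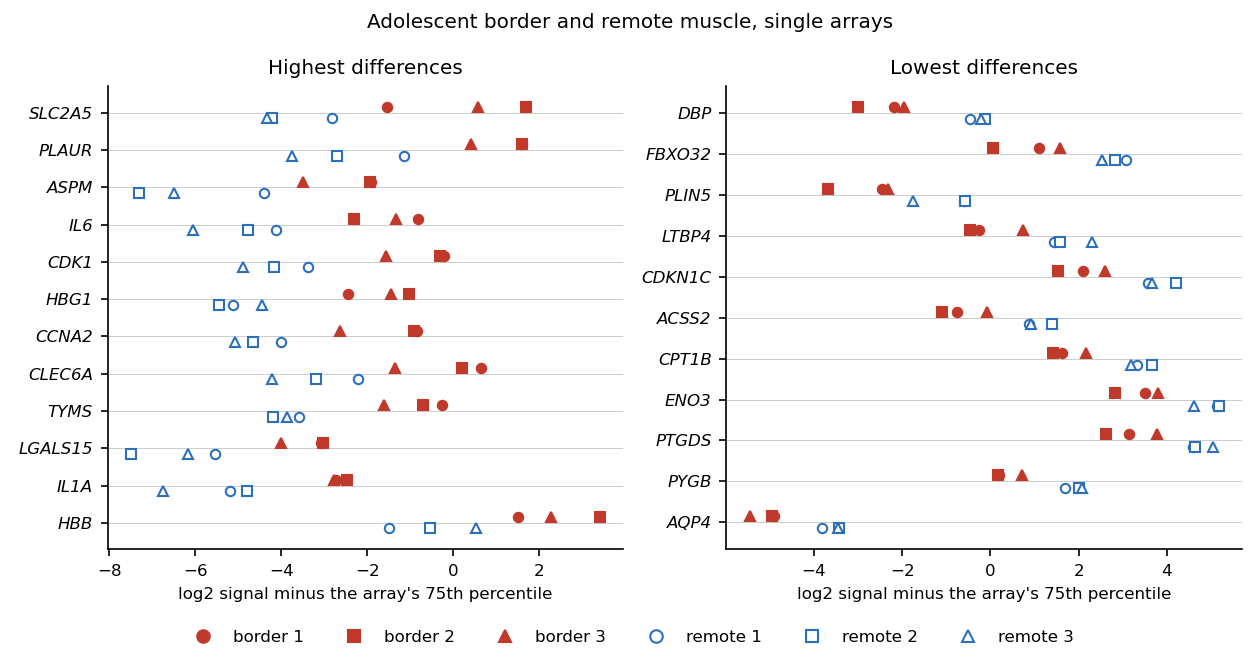
Array levels (log2 signal minus the array's 75th percentile) of the named genes highest and lowest in border against remote muscle, with border arrays filled, remote arrays open and 1 symbol per replicate. Border 3 is the border array nearest remote muscle in most rows, and no row has groups that overlap.

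Among probes without a name, some moved further than any named gene. The probe A_70_P026211 had levels of 7.91, 8.30 and 6.19 in border and 4.08, 3.82 and -1.08 in remote muscle, a 36.6-fold difference (log2 5.19 ± 1.06 (SE), adjusted p = 0.00245) in which remote 3 lay far below the other remote arrays. The fifth highest of them, A_70_P047731, had 2.00, 3.04 and 1.31 in border and -0.94, -2.15 and -2.55 in remote muscle, 16-fold higher (adjusted p = 0.000406). The lowest, A_70_P018836, had -0.20, -2.39 and -0.43 against 2.48, 2.69 and 1.96, a fall of 10.5-fold (log2 -3.39 ± 0.70 (SE), adjusted p = 0.00256). These 3 were singled out after their values were seen. The first 30 bases of each identify them:
A_70_P026211: tggcttcatggtacacccttataactaaaa
A_70_P047731: aggcatacagtggtgctcaatgtgtatttg
A_70_P018836: atgaaaacaagtgtcctctatgagttatcg

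Genes that a cell needs to copy its DNA and divide rose in border muscle. Of 15 cell cycle genes tested, 8 rose (CDK1, CCNA2, TYMS, CCNB1, AURKA, MYC, PCNA and CDK2) and 1 fell (CCND2), with a median of 1.39, where 17.4% of all 883 genes rose and 9.40% fell, with a median of 0.07. CDK1 had levels of -0.22, -0.30 and -1.56 on border 1, 2 and 3 and -3.38, -4.18 and -4.89 on remote 1, 2 and 3, 10.9-fold higher (log2 difference 3.45 ± 0.36 (SE), adjusted p = 3.85e-05). The cyclin that CDK1 binds at the entry into mitosis, CCNB1, had 1.71, 1.63 and 0.38 in border and -1.01, -1.47 and -2.49 in remote muscle and rose 7.43-fold (log2 2.89 ± 0.37, adjusted p = 0.000109). Cyclin A2, which serves DNA replication and early mitosis, had -0.84, -0.92 and -2.63 in border and -3.999, -4.66 and -5.08 in remote muscle and rose 8.66-fold (log2 3.11 ± 0.40, adjusted p = 0.000111). In all 3 genes border 3 was the lowest border array by more than 1 log2 unit and still above every remote array. TYMS, which makes the thymidine nucleotide for DNA, had -0.26, -0.70 and -1.61 in border and -3.59, -4.20 and -3.87 in remote muscle (8.14-fold, log2 3.02 ± 0.31, adjusted p = 3.85e-05). PCNA, the clamp that holds DNA polymerase on its template, had 1.15, 1.19 and 0.31 in border and -0.41, -0.57 and -0.55 in remote muscle and rose 2.63-fold (log2 1.39 ± 0.27, adjusted p = 0.0016). ASPM, outside the list, had -1.91, -1.94 and -3.498 in border and -4.41, -7.31 and -6.50 in remote muscle, with only 1 remote array above background. Remote levels of CDK1 and CCNA2 were above background on 2 of 3 arrays. CDKN1C, an inhibitor that holds cells out of division and is abundant in resting muscle, went the other way at 2.09, 1.53 and 2.59 in border and 3.57, 4.21 and 3.66 in remote muscle, a fall of 3.34-fold (log2 difference -1.74 ± 0.34 (SE), adjusted p = 0.00169). CDK1, CCNB1, CCNA2, TYMS, PCNA, ASPM and CDKN1C passed without each array in turn and under every alternative but normexp. MYC and CCND2 no longer passed in 4 and 3 alternatives besides normexp, leaving out border 1, border 2, remote 1, remote 2 or remote 3 among them (adjusted p up to 0.117). CDK2 did not pass in a fit of the 6 arrays alone (adjusted p = 0.0814).

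Some inflammatory ligands and a few of their receptors rose. Of 15 cytokines and chemokines tested 5 rose and none fell (median 0.93), beside 17.4% higher over all genes: IL6, IL1A, IL1RN, IL18 and IL10. The count was 2 without border 1 or remote 3 and 3 without border 2 or remote 2. IL6 had levels of -0.82, -2.31 and -1.33 on border 1, 2 and 3 and -4.13, -4.77 and -6.04 on remote 1, 2 and 3, 11.3-fold higher (log2 difference 3.49 ± 0.97 (SE), adjusted p = 0.0144). Here border 2 and not border 3 was the lowest border array, and the groups did not overlap. IL1A, an alarm cytokine that dying cells release, had -2.73, -2.46 and -2.77 in border and -5.21, -4.81 and -6.76 in remote muscle (7.66-fold, log2 2.94 ± 0.55, adjusted p = 0.00144), with 1 remote array above background. IL18, a cytokine that inflammasomes activate, had -0.33, -0.10 and -0.79 in border and -2.11, -2.80 and -2.80 in remote muscle and rose 4.48-fold (log2 2.16 ± 0.35, adjusted p = 0.000536). Its 3 probes differed, from -0.52 to 2.21, and 2 of them passed. IL10, which restrains macrophages, had -1.44, -1.73 and -2.39 in border and -2.36, -4.30 and -4.26 in remote muscle (3.45-fold, log2 1.79 ± 0.50, adjusted p = 0.0153), and here border 3 lay below remote 1. By contrast IL1B had -3.86, -3.64 and -4.30 in border and -4.11, -5.82 and -4.91 in remote muscle (log2 1.01 ± 0.52, adjusted p = 0.164). CXCL8 (interleukin 8, which draws neutrophils) had -2.56, -1.64 and -2.70 in border and -1.14, -3.82 and -4.21 in remote muscle (log2 0.76 ± 0.93, adjusted p = 0.598). CXCL10, which draws T cells, lay lower in border (log2 -0.86 ± 0.83, adjusted p = 0.481); none of the 3 passed. Remote 1 exceeded every border array in CXCL8. Of 5 receptors tested 2 rose. CXCR4, which guides cells towards CXCL12, rose 3.78-fold from -4.68, -5.33 and -4.69 to -2.38, -2.82 and -3.73 (log2 1.92 ± 0.37, adjusted p = 0.00159). IFNAR1, a subunit of the type I interferon receptor, rose 1.86-fold (log2 0.90 ± 0.20, adjusted p = 0.00434). None of 8 interferon response genes tested passed the threshold (median 0.29), and 1 passed without border 3. IL1A missed the threshold in the deposited values (adjusted p = 0.0989). IL10 no longer passed without border 1, border 2, remote 2 or remote 3 or in a fit of the 6 arrays alone (adjusted p = 0.0589 to 0.0825). IL1RN did not pass without border 1, border 2, remote 2 or remote 3, in a fit of the 6 arrays alone or with array brightness as a term (adjusted p = 0.0588 to 0.185).

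Some genes of monocytes and macrophages rose in border tissue, but their number depended on single arrays. Of 12 markers tested, 5 rose (LYZ, CTSS, FCGR1A, CD14 and LGMN), beside 17.4% of all genes, and none fell, with a median of 1.53, and their mean level was 0.81, 0.80 and -0.24 on border 1, 2 and 3 and 0.08, -1.58 and -1.51 on remote 1, 2 and 3. The count was 0 without border 2, 1 without border 1, remote 2 or remote 3 and 9 without remote 1. Remote 1 lay above border 3 in the mean level, while border 1 and 2 stood above every remote array. CTSS, a lysosomal protease that prepares antigens, had 3.90, 4.67 and 2.85 in border and 2.51, 0.76 and 1.03 in remote muscle and rose 5.18-fold (log2 difference 2.37 ± 0.59 (SE), adjusted p = 0.00767). LYZ, lysozyme, had 2.26, 2.33 and 1.25 in border and 1.02, -1.04 and -1.44 in remote muscle (5.42-fold, log2 2.44 ± 0.82, adjusted p = 0.0369). CD14, which presents bacterial endotoxin to its receptor, had 0.88, 0.24 and -0.53 in border and -0.20, -2.17 and -1.48 in remote muscle (2.79-fold, log2 1.48 ± 0.50, adjusted p = 0.0373). In CD14, border 3 lay within the remote range. Of 17 genes of innate sensing 5 rose (TLR2, PTX3, NOD2, CD14 and IRAK4; median 0.63), beside the same 17.4%, and the count was 1 without remote 2, 2 without border 1, border 2 or remote 3 and 8 without border 3. TLR2, a receptor for bacterial lipopeptides, had 0.12, -0.42 and -1.91 in border and -1.28, -4.21 and -3.99 in remote muscle (5.37-fold, log2 2.42 ± 0.75, adjusted p = 0.0248), with remote 1 above border 3. PTX3, a soluble pattern receptor, had -3.09, -2.94 and -2.53 in border and -4.04, -5.75 and -4.47 in remote muscle (3.73-fold, log2 1.90 ± 0.52, adjusted p = 0.0131). IRAK4, the kinase below Toll-like receptors, rose 2.1-fold (log2 1.07 ± 0.23, adjusted p = 0.00295). CLEC6A, a lectin of myeloid cells, was among the highest genes with 0.65, 0.21 and -1.36 in border and -2.22, -3.20 and -4.21 in remote muscle (8.23-fold, log2 3.04 ± 0.94, adjusted p = 0.0235). C5AR1, the receptor of the complement fragment C5a, had 2.33, 2.52 and 1.26 in border and 2.04, -0.68 and -0.70 in remote muscle (3.51-fold, log2 1.81 ± 0.64, adjusted p = 0.0456). CTSS missed the threshold without border 2 (adjusted p = 0.0552). LYZ and CD14 no longer passed without border 1, border 2, remote 2 or remote 3, in a fit of the 6 arrays alone or with array brightness as a term (adjusted p = 0.0554 to 0.191). TLR2 did not pass without border 1, border 2, remote 2 or remote 3 or in a fit of the 6 arrays alone (adjusted p = 0.093 to 0.125). PTX3 missed the threshold without remote 2 (adjusted p = 0.0843). CLEC6A no longer passed without border 1, border 2, remote 2 or remote 3 (adjusted p = 0.0651 to 0.101). C5AR1 did not pass without border 1, border 2, remote 2 or remote 3, with no filter on dim probes, in a fit of the 6 arrays alone or with array brightness as a term (adjusted p = 0.0582 to 0.196). FCGR1A, LGMN and NOD2 no longer passed in 7, 5 and 7 alternatives besides normexp, leaving out border 1, border 2, remote 2 or remote 3 among them (adjusted p up to 0.175).

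No marker of neutrophils, of T and NK cells or of mast cells passed the threshold. The 5 neutrophil genes had a median of -0.18, or 0 with genes below background in 1 zone at their bound. Without each array in turn the median ranged from -0.497 to 0.669, and the count of higher genes was 1 without remote 1 or with quantile normalization and 2 without border 3. BAC5 and CATHL3, the antimicrobial peptides of their granules, were above background on at most 1 of the 6 arrays, and MMP9, a gelatinase they also carry, had -2.54, -4.08 and -6.36 in border and -7.38, -7.67 and -6.66 in remote muscle (log2 2.91 ± 1.06, adjusted p = 0.0508), above background on 2 border arrays and no remote array, a difference of at least 1.65-fold. MMP9 passed with quantile normalization (adjusted p = 0.0292), with the slide as a block (0.0226), with array weights (0.00113) and without border 3 (0.011). ITGB2, the integrin chain that all leukocytes share, had 3.46, 2.90 and 0.94 in border and 2.10, 0.21 and -0.14 in remote muscle (log2 1.71 ± 0.71, adjusted p = 0.0847), and passed with array weights (adjusted p = 0.0109), without border 3 (0.0138) and without remote 1 (0.0277). The 7 T and NK cell genes had a median of -0.56 and none passed, among them CD3E, a chain of the T cell receptor complex, at -0.12, -0.23 and 0.19 in border and 0.88, 0.08 and 1.30 in remote muscle (log2 -0.80 ± 0.30, adjusted p = 0.0537). CD3E passed in the deposited values (adjusted p = 0.0124), among probes above background on every array (0.0392), with the slide as a block (0.045), with array weights (0.0118), without border 3 (0.0413) and without remote 2 (0.0167). CD3D, another chain, passed with quantile normalization (adjusted p = 0.0483), in the deposited values (0.0231) and with array weights (0.0288). Of the 3 mast cell genes, TPSB2 (tryptase) and FCER1A (the IgE receptor) were high on border 3 and remote 3 together, with FCER1A at -4.08, -4.15 and -1.61 in border and -4.22, -4.65 and -1.23 in remote muscle.

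Haemoglobin transcripts rose in border muscle. HBG1 stands here for the probe that the array's annotation describes as the fetal beta subunit of sheep haemoglobin. It had levels of -2.44, -1.03 and -1.44 on border 1, 2 and 3 and -5.13, -5.44 and -4.46 on remote 1, 2 and 3. No remote array was above background, and the bound used for such probes left the rise at 10.4-fold (log2 difference 3.37 ± 0.56 (SE), adjusted p = 0.000662). This fold is the estimate itself and is imprecise with remote muscle near background. HBB, the adult beta chain, had 1.498, 3.42 and 2.28 in border and -1.51, -0.54 and 0.53 in remote muscle and rose 7.49-fold (log2 difference 2.90 ± 0.63 (SE), adjusted p = 0.00341). Its second probe differed by 1.88 and did not pass. The groups did not overlap in either gene, and border 3 was not nearest remote muscle but in the middle of the border arrays. The chains are paralogs, and a probe for 1 of them may also bind the other. The other erythroid genes tested did not pass. AHSP, which stabilises alpha chains in red cell precursors, had -4.50, -3.72 and -4.48 in border and -3.90, -2.78 and -4.94 in remote muscle (log2 -0.36 ± 0.88, adjusted p = 0.81). The erythropoietin receptor EPOR had -5.02, -3.81 and -2.92 in border and -4.47, -4.19 and -2.90 in remote muscle (log2 -0.06 ± 0.58, adjusted p = 0.957). The mean level of the 4 erythroid genes was -2.62, -1.28 and -1.64 on border 1, 2 and 3 and -3.75, -3.24 and -2.94 on remote 1, 2 and 3. On infarct arrays the means were -5.499 for HBG1 and -1.62 for HBB, and on sham arrays -4.89 and -1.66. Blood left in the tissue was not measured, and its part in the result was not tested. HBG1 missed the threshold in the deposited values (adjusted p = 0.086).

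On the extracellular matrix list every gene past the threshold rose, while LTBP4, a matrix gene outside the list that is described below, fell. Of 13 extracellular matrix genes tested 7 rose (COL3A1, COL1A2, CCN2, COL5A2, COL12A1, COL1A1 and BGN) and none fell, with a median of 1.33, beside 17.4% higher over all genes. COL3A1, the collagen of early scar, had levels of 3.49, 4.35 and 2.16 on border 1, 2 and 3 and -0.03, -0.50 and 1.89 on remote 1, 2 and 3, 7.38-fold higher (log2 difference 2.88 ± 0.66 (SE), adjusted p = 0.0047), and all 4 of its probes passed. COL1A1 and COL1A2 make the chains of type I collagen. COL1A1 had 0.92, 1.89 and 0.46 in border and -1.20, -1.60 and -0.37 in remote muscle (4.43-fold, log2 2.15 ± 0.49, adjusted p = 0.00492). COL1A2 had 1.80, 2.71 and 0.79 in border and -1.22, -1.86 and 0.04 in remote muscle (6.87-fold, log2 2.78 ± 0.64, adjusted p = 0.00478). In these genes the zones approached each other on slide 3, where border 3 was the lowest border array and remote 3 the highest remote array. COL5A2, which sets the width of collagen fibrils, had 1.81, 1.57 and 0.59 in border and -1.03, -1.21 and -0.36 in remote muscle (4.57-fold, log2 2.19 ± 0.34, adjusted p = 0.000413). COL12A1, which lies on the surface of fibrils, had 1.63, 1.67 and 0.93 in border and -0.61, -1.05 and -0.61 in remote muscle (4.51-fold, log2 2.17 ± 0.41, adjusted p = 0.00142). Fibroblast genes overlap with this list. Of 7 tested 5 rose (median 2.15), and the count was 3 without border 1, border 2 or remote 2. VIM, the intermediate filament of mesenchymal cells, rose 2.1-fold (log2 1.07 ± 0.29, adjusted p = 0.0135). S100A4, which binds calcium and is also found in leukocytes, had 6.40, 6.18 and 4.63 in border and 4.70, 2.85 and 2.07 in remote muscle (5.78-fold, log2 2.53 ± 0.83, adjusted p = 0.0323). DCN (decorin) did not pass, and S100A4 was higher on remote 1 than on border 3. COL3A1 no longer passed in a fit of the 6 arrays alone (adjusted p = 0.0522). VIM did not pass without border 1, border 2 or remote 2 or in a fit of the 6 arrays alone (adjusted p = 0.068 to 0.101). S100A4 missed the threshold without border 1, border 2, remote 2 or remote 3, in a fit of the 6 arrays alone or with array brightness as a term (adjusted p = 0.0544 to 0.133). BGN no longer passed without border 2 or in a fit of the 6 arrays alone (adjusted p = 0.0515 to 0.0549). CCN2 did not pass without remote 1 or remote 2 or in a fit of the 6 arrays alone (adjusted p = 0.06 to 0.0981).

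Proteases and their inhibitors rose side by side. Of 14 tested 8 rose, beside 17.4% of all genes, and none fell (median 1.34, or 0.99 with genes below background in 1 zone at their bound). TIMP1, the inhibitor of many matrix metalloproteinases, had levels of 8.61, 9.29 and 9.12 on border 1, 2 and 3 and 6.76, 5.75 and 7.08 on remote 1, 2 and 3, 5.57-fold higher (log2 difference 2.48 ± 0.65 (SE), adjusted p = 0.00988). Border 3 was as high as the other border arrays in this gene. PLAU, urokinase, which turns plasminogen to plasmin, had -1.06, -1.57 and -2.32 in border and -3.63, -4.21 and -3.78 in remote muscle (4.66-fold, log2 2.22 ± 0.29, adjusted p = 0.000131), beside its receptor PLAUR. CTSB, a lysosomal protease, had 4.21, 4.26 and 2.65 in border and 1.95, 1.35 and 0.49 in remote muscle (5.43-fold, log2 2.44 ± 0.51, adjusted p = 0.00281). MMP14, which activates MMP2 at the cell surface, had -0.97, -0.82 and -1.98 in border and -2.36, -2.99 and -2.88 in remote muscle (2.8-fold, log2 1.49 ± 0.31, adjusted p = 0.00297). MMP2 and TIMP2 also passed. Genes of the cytoskeleton and of cell movement rose in 6 of 6 tested (median 1.70), beside 17.4% of all genes. Their count was 3 without border 1, border 2 or remote 2. ANXA2, an annexin that binds plasminogen at the membrane, had 5.505, 5.25 and 4.91 in border and 3.33, 2.77 and 3.56 in remote muscle (4.01-fold, log2 2.002 ± 0.26, adjusted p = 0.000131). LGALS1, galectin 1, had 5.77, 6.11 and 4.72 in border and 3.59, 3.73 and 3.73 in remote muscle (3.61-fold, log2 1.85 ± 0.41, adjusted p = 0.00428). ACTG1, a non-muscle actin whose sequence is close to that of other actins, had 6.03, 6.00 and 4.85 in border and 4.34, 3.74 and 4.13 in remote muscle (2.93-fold, log2 1.55 ± 0.30, adjusted p = 0.00175). CFL1, which cuts actin filaments, had 1.37, 1.16 and -0.91 in border and -0.77, -1.09 and -0.92 in remote muscle (2.77-fold, log2 1.47 ± 0.40, adjusted p = 0.0127). In CFL1 border 3 was level with remote muscle. Of 17 integrins and adhesion genes 4 rose (ITGAV, ITGA4, CD9 and ITGB1; median 0.89, or 0.61 at bounds), beside 17.4% of all genes, and the count was 1 without border 2 or remote 3, 2 without border 1 or remote 2 and 7 without border 3. ITGAV, a receptor for vitronectin, had -0.24, 0.06 and -0.23 in border and -1.59, -1.84 and -1.78 in remote muscle (3.03-fold, log2 1.60 ± 0.33, adjusted p = 0.0027). TIMP1 missed the threshold without remote 2 (adjusted p = 0.0566). CFL1 no longer passed without border 1, border 2 or remote 2 or in a fit of the 6 arrays alone (adjusted p = 0.0513 to 0.129). MMP2 did not pass without border 1, border 2 or remote 1, in the deposited values or in a fit of the 6 arrays alone (adjusted p = 0.0793 to 0.125). ITGA4, CD9 and ITGB1 no longer passed in 5, 6 and 7 alternatives besides normexp, leaving out border 1, border 2, remote 2 or remote 3 among them (adjusted p up to 0.146).

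Of 26 genes of the TGF beta, BMP, Wnt and Notch pathways tested, 4 rose, a share close to the 17.4% of all genes, and none fell. The median was 0.01, also close to that of all genes, and the count of higher genes was 2 without border 2 or remote 2. The 4 genes were the ligand genes TGFB2 and INHBA and the receptor genes ACVR1 and TGFBR1. TGFB2 had levels of 0.02, 0.75 and -0.10 on border 1, 2 and 3 and -2.38, -2.26 and -1.28 on remote 1, 2 and 3, 4.6-fold higher (log2 difference 2.201 ± 0.37 (SE), adjusted p = 0.000734). INHBA, the subunit of activin A, had 0.73, 0.27 and 0.47 in border and -2.41, -1.71 and -0.47 in remote muscle (4.07-fold, log2 2.02 ± 0.45, adjusted p = 0.00417), where remote 3 was again nearest border. ACVR1 and TGFBR1, type I receptors of the family, rose 2.04-fold (log2 1.03 ± 0.32, adjusted p = 0.0263) and 1.9-fold (log2 0.93 ± 0.31, adjusted p = 0.0365). TGFB1 had 0.13, -0.14 and -1.42 in border and -0.51, -1.004 and -0.86 in remote muscle (log2 0.32 ± 0.28, adjusted p = 0.441) and passed only without border 3 (adjusted p = 0.00453) or with array weights (adjusted p = 0.0178). LTBP4, which holds latent TGF beta in the matrix, went down, from 1.45, 1.56 and 2.31 to -0.25, -0.46 and 0.73 (3.4-fold, log2 difference -1.77 ± 0.34 (SE), adjusted p = 0.00156). ACVR1 missed the threshold without border 2, border 3, remote 2 or remote 3 or in a fit of the 6 arrays alone (adjusted p = 0.0666 to 0.112). TGFBR1 no longer passed without border 1, border 2, border 3, remote 1, remote 2 or remote 3 (adjusted p = 0.0594 to 0.114).

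Few heart muscle genes were on the array, and of 4 sarcomere and muscle cell genes tested only TPM1 fell, 2.03-fold (log2 difference -1.02 ± 0.32 (SE), adjusted p = 0.0271), with levels given above; the median was -1.13. MYH7, the slow myosin heavy chain of the ventricle, had 2.89, 3.30 and 3.86 in border and 4.90, 4.95 and 5.02 in remote muscle (log2 -1.60 ± 0.65, adjusted p = 0.0776), and MB did not pass either (log2 -1.24 ± 0.59, adjusted p = 0.136). The groups did not overlap in these 3 genes, and border 3 was the border array nearest remote muscle in each. For CRYAB, a small heat shock protein of muscle, border 3 was left out of the fit because its spot was marked as an outlier (log2 -0.50 ± 0.40, adjusted p = 0.386). ATP1B1, a subunit of the sodium pump, fell 1.78-fold (log2 -0.83 ± 0.25, adjusted p = 0.0214), while GJA1, the connexin that couples muscle cells, did not pass (log2 -0.38 ± 0.30, adjusted p = 0.386); it and MB passed with array weights (adjusted p = 0.0281 and 0.0429). None of 9 natriuretic, angiotensin, endothelin and adrenergic genes passed (median -0.21), nor did any of 9 endothelial genes (median -0.06) or of 5 skeletal muscle genes (median -0.07). Of the first list, the number lower was 1 in the deposited values and 2 without border 3, and of the second 1 with quantile normalization. The skeletal muscle gene TNNC2 was high on slide 2 in both zones, at -2.67, 1.27 and -1.78 in border and -1.13, 3.06 and -1.56 in remote muscle. TPM1 did not pass without border 1, border 2, remote 1, remote 2 or remote 3, with quantile normalization or in the deposited values (adjusted p = 0.0549 to 0.266). ATP1B1 missed the threshold without border 1, border 2 or remote 2 or in a fit of the 6 arrays alone (adjusted p = 0.07 to 0.122). MYH7 passed in the deposited values (adjusted p = 0.0152), in a fit of the 6 arrays alone (0.0286) and with array weights (0.0182).

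Among genes of fatty acid use and of mitochondrial respiration more fell than rose. Of 7 genes of fatty acid oxidation and transport 3 fell, beside 9.40% of all genes, and 1 rose (median -1.11). CPT1B, the muscle form of the enzyme that lets fatty acids into mitochondria, had levels of 1.62, 1.42 and 2.17 on border 1, 2 and 3 and 3.33, 3.67 and 3.19 on remote 1, 2 and 3, a fall of 3.16-fold (log2 difference -1.66 ± 0.37 (SE), adjusted p = 0.00436), and both of its probes passed. CPT1A, the form of liver and of many other cells, went up from -1.70, -3.23 and -2.73 to 0.42, 0.44 and -2.13 (4.38-fold, log2 difference 2.13 ± 0.68 (SE), adjusted p = 0.0277), a rise carried by border 1 and 2, since border 3 lay within the remote range. PPARA, a nuclear receptor that turns on fatty acid oxidation, had -2.96, -3.11 and -2.51 in border and -1.73, -1.61 and -1.91 in remote muscle (2.15-fold lower, log2 -1.11 ± 0.26, adjusted p = 0.00558). LPL, which frees fatty acids from lipoproteins, fell 2.37-fold (log2 -1.24 ± 0.40, adjusted p = 0.0299). PPARGC1A, a coactivator of mitochondrial genes, had -2.42, -2.59 and -0.95 in border and -0.34, -0.49 and -0.27 in remote muscle (log2 -1.62 ± 0.75, adjusted p = 0.122), and passed in the deposited values (adjusted p = 0.0349) and with array weights (0.0151). PLIN5, which coats lipid droplets at mitochondria, had -2.46, -3.67 and -2.31 in border and -0.60, -0.57 and -1.76 in remote muscle (3.58-fold lower, log2 -1.84 ± 0.65, adjusted p = 0.0443). ACSS2, which makes acetyl-CoA from acetate, had -0.77, -1.11 and -0.09 in border and 0.88, 1.40 and 0.91 in remote muscle (3.29-fold lower, log2 -1.72 ± 0.37, adjusted p = 0.00341). Of 5 genes of oxidative phosphorylation 4 fell (median -0.95). ATP5MC1 and ATP5MC2, which both encode the ring subunit of ATP synthase, both fell. ATP5MC1 had 7.32, 7.59 and 7.95 in border and 8.69, 8.72 and 8.47 in remote muscle (2.01-fold lower, log2 -1.01 ± 0.21, adjusted p = 0.00283). ATP5MC2 had 6.62, 6.69 and 7.46 in border and 8.07, 7.95 and 7.88 in remote muscle (2.06-fold lower, log2 -1.04 ± 0.25, adjusted p = 0.0067). They code for the same mature protein and may share signal. NDUFA2, of respiratory complex I, fell 1.93-fold (log2 -0.95 ± 0.21, adjusted p = 0.00354). Outside the list SLC25A5, the ADP and ATP carrier of dividing cells, rose from 0.53, 0.24 and 0.19 to 3.03, 3.15 and 1.98 (5.28-fold, log2 difference 2.40 ± 0.28 (SE), adjusted p = 5.66e-05). CPT1A no longer passed without border 1, border 2, remote 2 or remote 3 or in a fit of the 6 arrays alone (adjusted p = 0.0714 to 0.141). LPL did not pass without border 1, border 2, remote 1 or remote 2, with quantile normalization or with array brightness as a term (adjusted p = 0.0533 to 0.106). PLIN5 missed the threshold without border 1, border 2, remote 1 or remote 2, with no filter on dim probes or with array brightness as a term (adjusted p = 0.0568 to 0.203). NDUFA2 no longer passed in a fit of the 6 arrays alone (adjusted p = 0.06). The remaining gene of oxidative phosphorylation that fell did not pass in that fit or without border 1 or border 2 (adjusted p = 0.0611 to 0.102).

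Genes of glucose use moved both ways. Of 15 tested 5 fell (ENO3, PFKM, PYGM, ALDOA and GAPDH) beside 9.40% of all genes, with a median of -0.39. The 3 that rose, beside 17.4% of all genes, included SLC2A5 and LDHA. ENO3, PFKM and PYGM are the muscle forms of enolase, of phosphofructokinase and of glycogen phosphorylase. PYGM had 2.39, 2.21 and 2.74 in border and 3.88, 3.90 and 3.99 in remote muscle (2.78-fold lower, log2 -1.48 ± 0.35, adjusted p = 0.0055). ENO3 had 3.51, 2.83 and 3.80 in border and 5.13, 5.17 and 4.62 in remote muscle (3.01-fold lower, log2 -1.59 ± 0.51, adjusted p = 0.0283). ALDOA, the aldolase of muscle, had 5.89, 5.64 and 6.23 on border 1, 2 and 3 and 7.12, 7.39 and 7.35 on remote 1, 2 and 3, 2.58-fold lower (log2 difference -1.37 ± 0.20 (SE), adjusted p = 0.000256). GAPDH, often used as a reference gene, had 6.74, 6.46 and 6.69 in border and 7.79, 7.68 and 7.71 in remote muscle and fell 2.14-fold (log2 -1.10 ± 0.16, adjusted p = 0.000269). Of its 5 probes 3 passed, and they ranged from -1.18 to -0.41. PYGB, the brain form of glycogen phosphorylase, which the heart also has, had 0.19, 0.17 and 0.72 in border and 1.69, 2.01 and 2.08 in remote muscle (2.96-fold lower, log2 -1.57 ± 0.21, adjusted p = 0.000168). LDHA, the lactate dehydrogenase chain that favours lactate, had 4.003, 4.03 and 4.18 in border and 2.10, 1.37 and 2.72 in remote muscle and rose 4.02-fold (log2 difference 2.01 ± 0.36 (SE), adjusted p = 0.00104), with border 3 as high as the other border arrays. SLC2A4, the insulin-dependent glucose transporter of muscle, had 2.70, 3.19 and 3.82 in border and 5.05, 5.37 and 4.25 in remote muscle (log2 -1.66 ± 0.68, adjusted p = 0.08). SLC2A1, the transporter found in most cells, did not pass either (log2 0.65 ± 0.59, adjusted p = 0.448). ENO3 did not pass without border 1, border 2, remote 1 or remote 2 (adjusted p = 0.0658 to 0.134). PFKM missed the threshold without border 2 (adjusted p = 0.0599). The count of lower genes was 3 without border 2. SLC2A4 passed in the deposited values (adjusted p = 0.0205), in a fit of the 6 arrays alone (0.0433) and with array weights (0.0195).

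Few genes of the response to low oxygen passed. Of 19 genes of hypoxia and vessel growth 2 rose (HIF1A and HGF), a share below the 17.4% of all genes, and 2 fell (EPAS1 and FGF1), near the 9.40% of all genes, with a median of 0.36 that turned negative in the deposited values (-0.13). The count of higher genes was 0 without border 1 or border 2 or in the deposited values and 1 without border 3, remote 1, remote 2 or remote 3 or with quantile normalization, and that of lower genes was 0 without border 2 or remote 2, 1 without border 1, remote 1 or remote 3 and 5 without border 3. HIF1A and EPAS1 encode the alpha subunits of the hypoxia-inducible factors HIF-1 and HIF-2. HIF1A had -1.89, -1.78 and -1.20 in border and -2.44, -2.84 and -2.70 in remote muscle (2.05-fold higher, log2 1.04 ± 0.35, adjusted p = 0.0346). EPAS1 had -3.21, -3.54 and -3.35 in border and -1.95, -1.72 and -2.19 in remote muscle (2.67-fold lower, log2 -1.42 ± 0.39, adjusted p = 0.0137), with all 4 EPAS1 probes past the threshold. HGF, a growth factor that mesenchymal cells release, was above background on 2 border arrays and on no remote array, at least 1.84-fold higher (log2 1.90 ± 0.56, adjusted p = 0.02). VEGFA, the vascular growth factor, had 0.45, 0.26 and 1.79 in border and 2.22, 2.23 and 2.22 in remote muscle (log2 -1.39 ± 0.54, adjusted p = 0.0667). Border 1 and 2 were low and border 3 lay close to remote muscle, and VEGFA passed among probes above background on every array (adjusted p = 0.0492), with array weights (0.00139) and without border 3 (0.0179). Among 14 genes of the growth hormone, insulin and IGF system 3 rose, all of them IGF binding proteins (IGFBP3, IGFBP4 and IGFBP6), and 2 fell (INSR and MTOR), shares near those of all genes, with a median of -0.56. The count of higher genes was 1 without border 1, border 2, remote 1 or remote 2. IGFBP3, the main carrier of IGF in blood, had -0.84, -1.84 and -2.10 in border and -3.02, -2.91 and -2.996 in remote muscle (2.61-fold, log2 1.39 ± 0.42, adjusted p = 0.0212). MTOR, the kinase of nutrient sensing, fell 1.5-fold (log2 -0.58 ± 0.15, adjusted p = 0.00821). The growth factors themselves did not pass, and IGF1 had -0.54, 0.39 and 0.36 in border and -0.72, -1.53 and 0.78 in remote muscle (log2 0.56 ± 0.50, adjusted p = 0.445). IGF2 had 2.89, 3.16 and 3.30 in border and 3.35, 4.10 and 4.29 in remote muscle (log2 -0.80 ± 0.30, adjusted p = 0.0554), and passed among probes above background on every array (adjusted p = 0.0405), with the slide as a block (0.045) and without remote 1 (0.0205). HIF1A no longer passed without border 1, border 2, border 3, remote 2 or remote 3, with quantile normalization or in the deposited values (adjusted p = 0.0534 to 0.113). EPAS1 did not pass without border 2 or remote 2 (adjusted p = 0.0588 to 0.0601). HGF missed the threshold without border 1, border 2 or remote 1 (adjusted p = 0.0677 to 0.0986). IGFBP3 no longer passed without border 1, remote 1, remote 2 or remote 3 (adjusted p = 0.0509 to 0.126). MTOR did not pass in a fit of the 6 arrays alone (adjusted p = 0.0937). FGF1, INSR, IGFBP6 and IGFBP4 no longer passed in 9, 7, 5 and 3 alternatives besides normexp, leaving out border 1, border 2, remote 1, remote 2 or remote 3 among them (adjusted p up to 0.235).

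In smaller lists single genes passed, where 17.4% of all genes tested rose and 9.40% fell. Among 10 genes of apoptosis and survival 3 rose, BCL2 (3.18-fold, log2 1.67 ± 0.34, adjusted p = 0.00255) and MCL1 (1.65-fold, log2 0.72 ± 0.24, adjusted p = 0.0368), which hold cell death back, and BAX (2.36-fold, log2 1.24 ± 0.30, adjusted p = 0.00695), which carries it out. BCL2L1, also protective in its long form, fell (1.72-fold, log2 -0.78 ± 0.24, adjusted p = 0.0221). Among 5 antioxidant genes TXN (thioredoxin) rose 2.31-fold (log2 1.21 ± 0.22, adjusted p = 0.00122). The superoxide dismutases SOD1 (1.62-fold, log2 -0.69 ± 0.20, adjusted p = 0.016) and SOD2, the mitochondrial one (2.04-fold, log2 -1.03 ± 0.36, adjusted p = 0.0456), fell. Of 8 heat shock and unfolded protein genes 1 rose, PPIB, a folding enzyme of the collagen pathway (2.38-fold, log2 1.25 ± 0.26, adjusted p = 0.00273). Of 8 genes of prostaglandins and lipid mediators 2 fell, PTGDS, which makes prostaglandin D2, at 3.14, 2.63 and 3.78 in border and 4.59, 4.62 and 5.04 in remote muscle (2.97-fold, log2 -1.57 ± 0.35, adjusted p = 0.00433), and PTGER3, a receptor of prostaglandin E2 (2.12-fold, log2 -1.08 ± 0.37, adjusted p = 0.0404). PTGS2, the inducible cyclooxygenase, did not pass (log2 0.65 ± 0.43, adjusted p = 0.284). PER1, a clock gene that glucocorticoids also raise, was the single one of 12 steroid and thyroid genes past the threshold. It was above background on no border array and on 1 remote array, a fall of at least 1.16-fold (log2 -1.45 ± 0.50, adjusted p = 0.0389). Of 13 ribosome and translation genes 1 rose (EEF1A1, the factor that brings tRNA to ribosomes, 2.16-fold, log2 1.11 ± 0.22, adjusted p = 0.00178) and 1 fell (RPL32, 2.3-fold, log2 -1.20 ± 0.29, adjusted p = 0.00606), and the median was -0.08. AQP4, a water channel, had -4.90, -4.94 and -5.46 in border and -3.83, -3.44 and -3.45 in remote muscle (2.88-fold lower, log2 -1.53 ± 0.41, adjusted p = 0.0122). LGALS15, a sheep galectin, had -3.09, -3.03 and -4.01 in border and -5.54, -7.50 and -6.17 in remote muscle (8.14-fold higher, log2 3.02 ± 0.79, adjusted p = 0.0103). MCL1 missed the threshold without border 1, border 2, border 3 or remote 2 or in a fit of the 6 arrays alone (adjusted p = 0.0548 to 0.184). BCL2L1 no longer passed without border 1, border 2 or remote 2 (adjusted p = 0.0608 to 0.0994). SOD1 did not pass without border 1, border 2 or remote 2 or in a fit of the 6 arrays alone (adjusted p = 0.0799 to 0.117). SOD2 missed the threshold without border 1, border 2, remote 1, remote 2 or remote 3, with quantile normalization, in the deposited values, with no filter on dim probes, in a fit of the 6 arrays alone or with array brightness as a term (adjusted p = 0.0593 to 0.204). PTGER3 no longer passed without border 1, border 2, remote 1, remote 2 or remote 3, with quantile normalization, with no filter on dim probes, in a fit of the 6 arrays alone or with array brightness as a term (adjusted p = 0.0528 to 0.197). PER1 did not pass without border 1, border 2, remote 2 or remote 3, with no filter on dim probes or with array brightness as a term (adjusted p = 0.0508 to 0.174). EEF1A1 missed the threshold in a fit of the 6 arrays alone (adjusted p = 0.065). LGALS15 no longer passed without remote 2 (adjusted p = 0.0614).

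Lists for tissues that a piece of heart should hold little of were counted as well, where 17.4% of all genes rose and 9.40% fell. Of 10 plasma proteins that the liver makes, 1 rose (SERPINC1, antithrombin, 2.22-fold, log2 1.15 ± 0.35, adjusted p = 0.0213) and the median was 0.28 (0.03 with genes below background in 1 zone at their bound), with ALB (albumin) above background on 1 array in each zone (log2 -0.71 ± 1.13, adjusted p = 0.694). Of 6 fat cell genes only LPL, which heart muscle also makes, passed, and LEP, leptin, did not (log2 -0.56 ± 0.41, adjusted p = 0.344). Of the smooth muscle genes 2 were tested, too few to describe as a list, and both rose, MYLK, the kinase of myosin light chains, and CNN1, calponin. The macrophage list lay higher in border tissue, as given above, and its part in the other lists was not tested. SERPINC1 did not pass without border 1, border 2 or remote 2 or in a fit of the 6 arrays alone (adjusted p = 0.0528 to 0.132). MYLK and CNN1 no longer passed in 5 and 3 alternatives besides normexp, leaving out border 1, border 2, remote 1 or remote 2 among them (adjusted p up to 0.125).

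**Figure D4:**
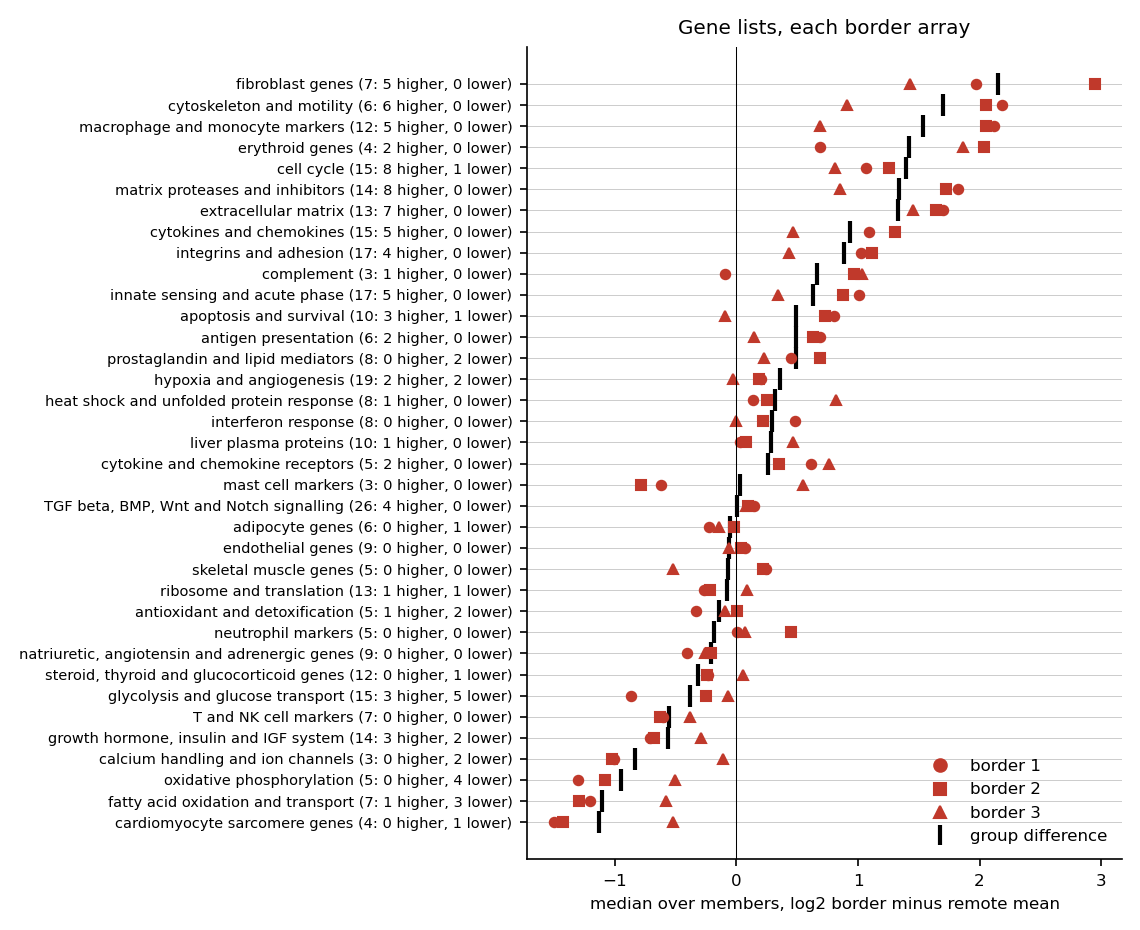
Medians over the members of each list with at least 3 genes tested, as the log2 difference of border 1, 2 and 3 (circle, square, triangle) from the remote mean and of the group difference (bar); brackets give the genes tested and those past the threshold. Fibroblast, cytoskeleton, macrophage and cell cycle lists lie to the right and muscle, fatty acid and respiration lists to the left, with border 3 nearer 0 than the other border arrays in most of them.

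Fewer probes separated the same zones in fetal hearts, 2 groups of 3 arrays. No probe of 12451 passed in fetal border against fetal remote muscle in limma (0.00%), and 565 (4.54%) had an unadjusted p under 0.05. The difference between the ages, fitted as an interaction term, passed for 1 probe (0.00803%), a probe without a gene name, and 1736 (13.9%) had an unadjusted p under 0.05, so that a larger adolescent response is not shown gene by gene here. Without border 3 the interaction passed for 576 probes, 329 of them higher in adolescents, and with array weights, which gave border 3 a weight of 0.29 beside 1.73 and 1.81 for border 1 and 2, for 1338. Medians of lists at the 2 ages, adolescent first, were as follows. The cytokine list had 0.93 in adolescent and 1.26 in fetal hearts, the macrophage list 1.53 and 1.60, and the innate list 0.63 and 0.69. The cell cycle list had 1.39 and 0.36, the matrix list 1.33 and 0.46, the fatty acid list -1.11 and -0.32 and the respiration list -0.95 and -0.29. Differences between these medians were not tested.

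Some genes had estimated differences of similar size at both ages. IL6 differed by 3.49 in adolescent and by 3.98 in fetal hearts, SLC2A5 by 4.04 and 3.86 and CTSS by 2.37 and 2.01. The limma interaction gave adjusted p of 0.915, 0.971 and 0.89 for the difference between ages. Such high values do not show that the sizes are equal, and IL6, SLC2A5 and CTSS did not pass in fetal hearts. The named genes nearest the threshold of the interaction on the higher side were CDK1 (3.45 against 0.84, adjusted p = 0.0723), SLC25A5 (2.40 against 0.49), TYMS (3.02 against 1.02), PLAU (2.22 against 0.39) and PPIA, a prolyl isomerase (1.39 against 0.18), the last 4 at an adjusted p of 0.0741. On the lower side they were DBP (-2.11 against -0.04, adjusted p = 0.0723), GAPDH (-1.10 against -0.09, 0.0741), ALDOA (-1.37 against -0.16, 0.0777), PYGB (-1.57 against -0.41, 0.108) and FBXO32 (-1.90 against 0.05, 0.144). None of these 10 passed. DBP had fetal levels of -2.07, -1.80 and -1.11 in border and -1.47, -2.05 and -1.33 in remote muscle, where the groups overlapped, against the 3 adolescent arrays a side that stood apart. HBG1 had fetal levels of 4.06, 4.30 and 4.42 in border and 4.34, 4.48 and 4.04 in remote muscle (adjusted p = 0.0799 for the interaction).

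**Figure D5:**
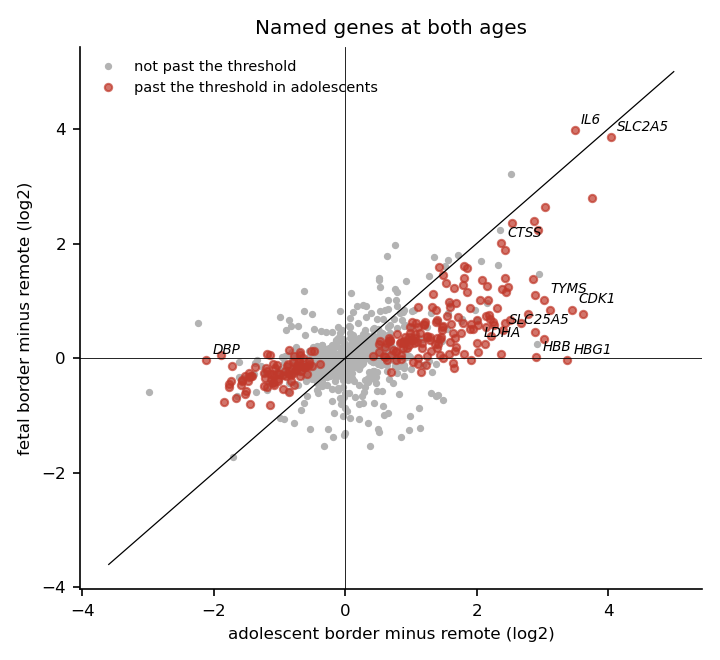
Each point is 1 of 883 named genes, with its log2 difference between border and remote muscle in adolescent hearts on the horizontal and in fetal hearts on the vertical axis; red genes passed the threshold in adolescents, and the line marks equal differences. IL6 and SLC2A5 lie near the line, while HBG1, HBB, DBP and LDHA lie near 0 on the fetal axis.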

How the data were processed

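RNA of 23 sheep heart samples was measured on 1-colour Agilent arrays. Per the file headers, the authors scanned and extracted them with Feature Extraction 10.1.1.1, which gave for each spot a mean and a background intensity and a processed intensity, local background subtracted and detrended within the array. The deposited log2 values hold 8411 probes; per the submitters' processing notes they were made with limma, and their centring and scaling are not given in the sources used here. Other scores, named "other" in kind, are the deposited flags for spots above background or marked as outliers.

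From the processed intensities, control spots and outlier spots were dropped, spots of a probe were averaged, and log2 values were set relative to the 75th percentile of each array. Probes well above background on at least 2 arrays of any of the 8 groups were tested, with limma 3.58.1 in R 4.3.3 over all 23 arrays (1 mean per group, no block, empirical Bayes), and p-values were adjusted over 12451 probes by Benjamini and Hochberg. The age difference is the interaction in the same fit. Where no array of a group was well above background, the fold is a bound: the bright group's mean against, per array, the higher of the dim probe's value and the lowest signal well above background. Names came from the array's annotation and from RefSeq (ARS-UI_Ramb_v3.0, for names alone), which named 1736 of 15008 probes and 883 of the genes tested. Text names the 12 highest and 12 lowest genes that passed with the same sign on all 3 slides, up to 4 genes per list by the moderated statistic, a fixed set of genes with roles in the injured heart, and the 5 genes at either end of the age difference; other members of a list are named with its count. A few genes that these rules choose are not reported here. The comparison, the lists and these rules were chosen with earlier results of these data known. Tried instead were normexp (offset 50), quantile normalization, the deposited values, other filters on dim probes, slide as a block, the compared groups alone, array weights, array brightness as a covariate, and leaving out each array. On simulated data for this comparison, with 12451 probes of which 100 changed by each fold, the fit recovered 34% of 2-fold and 79% of 4-fold changes, and 5 of its 118 calls were unchanged probes. The simulation gave every array the same spread, drew noise independently between probes and changed a smaller share of probes than the 25.9% called here. Its rates need not hold for these arrays. The number of arrays limits the precision. The array design number and the scanner model differ between the series text and the file headers.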

Additional observations from a re-analysis of the deposited data

Results flagged for a closer look

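The probe A_70_P009551 was the single one of 12451 whose border to remote difference itself differed between the ages (limma interaction, 3.06 ± 0.45 (SE), adjusted p = 0.0344, higher in adolescents). It has no gene name here. Adolescent array levels were 1.54, 1.87 and 0.73 in border and -1.73, -2.51 and -3.08 in remote muscle, a difference of 3.82 ± 0.32 (SE). Fetal levels were 1.34, 1.34 and 0.78 in border and 0.26, 0.30 and 0.62 in remote muscle, a difference of 0.76 ± 0.32 (SE). Border levels were alike at both ages, and adolescent remote levels lay below the fetal ones on every array. Its first 30 bases are printed to identify it:
A_70_P009551: ggaggtggagtcctttgaaaatggccttta
The interaction no longer passed for it with normexp, with no filter on dim probes, with the replicate block, in a fit of the 4 groups alone, or without border 1, border 2 or remote 2 or any of fetal border 2, fetal border 3, fetal remote 1 and fetal remote 3. No group of the report had 4 or more samples, so single far values were not tested for.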

How the results depend on the processing

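Direction and call were stable for the 50 of 100 genes chosen for naming and past the threshold that passed in every alternative but normexp; under normexp none of the 100 passed. The next counts also take in further genes examined beside those chosen for naming. Over all these genes and all alternatives, 2412 results kept their side of the threshold, 69 passed newly, 433 no longer passed and 2 reversed. For the count of 3223 probes, the fit without each array in turn gave 1592 to 4138, normexp gave 4, the groups compared alone 1656 and array weights 5692; quantile normalization (3319), the deposited values (2856 of 8411), no filter (2859 of 15008) and array brightness in the fit (3000) stayed within 1.5 times. Replicate numbers mark slides. Deviations of border and remote arrays of the same number correlated at 0.374, 0.0772 and 0.233, beside -0.273 to 0.0166 for unlike numbers, and each array correlated best with its own number, a hint from the data and not the design. The numbers were not taken to pair the samples, and the replicate block gave 3574. For the age difference, which 1 probe passed, normexp, no filter, the replicate block and the groups compared alone gave 0, quantile normalization 3, the deposited values 34, probes above background on every array 41 and array weights 1338; without each array in turn the count was 0 to 576, the latter without border 3. The border to remote difference over probes that infarction raises stayed between 0.367 and 1.143, with a main value of 0.721. Over probes that infarction lowers it lay between -0.802 and -0.433, with the exception of normexp, where it reversed to 0.07 (exact permutation p = 0.9). Other reversals under normexp were PER1 (0.076), INSR (0.022) and the medians of the natriuretic, angiotensin and adrenergic list (0.073) and of the steroid and thyroid list (0.061). Without each array in turn, list medians ranged from -0.116 to 0.581 for plasma proteins, from -0.104 to 1.353 for complement and from -0.028 to 0.434 for hypoxia and angiogenesis, each reversed without remote 2. The last also reversed with the mean over probes (-0.009) and in the deposited values (-0.13); the cause was not tested. Normexp moved the median of all probes from -0.043 to 0.1, quantile normalization to -0.093.

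Limits: 3 arrays a side cannot give an exact permutation p below 0.1, brightness over background was lowest on border 3 and remote 3, and levels near background, as in CDK1, ASPM and IL1A in remote muscle, make large folds imprecise. Signal from close paralogs cannot be told apart on these probes.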

Other observations

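Further genes outside the lists are described here, chosen after their values were seen. Of the NADPH oxidases, which make superoxide, CYBB, the catalytic subunit of phagocytes, rose 3.15-fold (log2 1.65 ± 0.53, adjusted p = 0.0273) and CYBA, its partner, 3.2-fold (log2 1.68 ± 0.40, adjusted p = 0.00616). NOX4, a form of mesenchymal and vascular cells, was above background on 2 border arrays and on no remote array and rose at least 1.87-fold (log2 2.04 ± 0.40, adjusted p = 0.00184). NOX5, another catalytic form, went the other way and fell 1.81-fold (log2 -0.86 ± 0.20, adjusted p = 0.00528). CLEC7A, the receptor for fungal glucan on myeloid cells, had -2.09, -1.09 and -3.26 in border and -3.77, -5.38 and -5.86 in remote muscle and rose 7.22-fold (log2 difference 2.85 ± 0.72 (SE), adjusted p = 0.00799). ADORA3, an adenosine receptor, rose 5.21-fold (log2 2.38 ± 0.61, adjusted p = 0.00878). LMNB1, a lamin of the nuclear envelope that is abundant in dividing cells, had -1.14, -1.21 and -2.58 in border and -3.65, -4.06 and -4.76 in remote muscle (5.71-fold, log2 2.51 ± 0.32, adjusted p = 0.00012). MTHFD2, a mitochondrial folate enzyme that feeds nucleotide synthesis, had -0.75, -0.79 and -1.62 in border and -2.64, -3.47 and -3.10 in remote muscle (4.05-fold, log2 2.02 ± 0.34, adjusted p = 0.000684). SNAI2, a repressor of epithelial genes, rose 3.02-fold (log2 1.59 ± 0.29, adjusted p = 0.00115). CYBB missed the threshold without border 1, border 2, remote 2 or remote 3 or in a fit of the 6 arrays alone (adjusted p = 0.0867 to 0.133). CYBA and NOX5 no longer passed in a fit of the 6 arrays alone (adjusted p = 0.0532 to 0.0594). CLEC7A and ADORA3 did not pass without border 2 (adjusted p = 0.0552 to 0.0569).

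The ADP and ATP carriers of mitochondria did not move as 1 group. SLC25A4, the form of heart and skeletal muscle, had 7.82, 7.77 and 8.49 in border and 9.11, 9.20 and 9.07 in remote muscle and fell 2.15-fold (log2 difference -1.10 ± 0.33 (SE), adjusted p = 0.0205), while SLC25A5 rose 5.28-fold. SLC25A6, a further carrier, did not pass (log2 -0.14 ± 0.21, adjusted p = 0.67). The carriers are paralogs, and their probes may share signal. BCKDHA, a mitochondrial enzyme that breaks down branched-chain amino acids, had -1.54, -2.03 and -0.14 in border and 0.12, 0.29 and 0.45 in remote muscle (2.87-fold lower, log2 -1.52 ± 0.42, adjusted p = 0.0144). Lower values were also found for SLC25A11, the carrier of 2-oxoglutarate (2.18-fold, log2 -1.12 ± 0.22, adjusted p = 0.00205), NDUFA12, of complex I (2.17-fold, log2 -1.12 ± 0.23, adjusted p = 0.00229), and CHCHD3, which shapes cristae (2.03-fold, log2 -1.02 ± 0.21, adjusted p = 0.00232). TXNIP, which binds thioredoxin and limits glucose uptake, had 4.42, 3.70 and 5.09 in border and 6.096, 5.41 and 6.03 in remote muscle and fell 2.72-fold (log2 -1.44 ± 0.37, adjusted p = 0.00913). ERBB2, the neuregulin coreceptor of heart muscle, fell 2.28-fold (log2 -1.19 ± 0.39, adjusted p = 0.0331). HAND1, a transcription factor of the embryonic heart, fell 2.22-fold (log2 -1.15 ± 0.35, adjusted p = 0.0215). SLC25A4 missed the threshold without border 1, border 2 or remote 2, with quantile normalization or in the deposited values (adjusted p = 0.0668 to 0.203). BCKDHA no longer passed without border 1 or border 2 or in a fit of the 6 arrays alone (adjusted p = 0.0657 to 0.0998). TXNIP did not pass without border 2 or in a fit of the 6 arrays alone (adjusted p = 0.0535 to 0.0683). ERBB2 missed the threshold without border 1, border 2, remote 1, remote 2 or remote 3 or with array brightness as a term (adjusted p = 0.0533 to 0.143). HAND1 no longer passed without border 1, border 2 or remote 3 or in a fit of the 6 arrays alone (adjusted p = 0.0672 to 0.107). As for the other named genes, no call was kept under normexp.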
